A study of Mus musculus with 8 samples.

Results

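Replication-dependent histone genes supply the histones that package newly copied DNA. The 66 studied here were selected by name: protein-coding mouse genes of the H1f1 to H1f5, H2ac, H2bc, H3c and H4c series with a mean count above 0, out of 55359 listed genes. Of 67 protein-coding genes with such a symbol, only H2ac24 had a mean of 0 and was left out. The 66 comprise 5 H1, 17 H2A, 19 H2B, 12 H3 and 13 H4 genes. The naming rule used no difference between groups, but the class was chosen with earlier results of these data known.

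Total RNA was sequenced from primary bone marrow-derived macrophages (BMDMs, Mϕ) of wildtype C57BL/6 mice, adult and of both sexes, grown with M-CSF and GM-CSF at 20 ng/mL each. Ctrl Mϕ were left naïve and unstimulated. LPS Mϕ were naïve and received 100 ng/mL LPS, a bacterial cell wall component, with 100 U/mL murine IFNγ for 6 h. Eff Mϕ were made efferocytic by 16 h with apoptotic mouse fibroblasts (NIH-3T3 CA cells, 1 clone with a caspase-8 that a dimerizer switches on, pretreated for 6 h with 10 nM dimerizer, which stayed in the co-culture) at 5 apoptotic cells per Mϕ, and were not stimulated. LPSEff Mϕ had the same co-culture, 2 washes and then LPS with IFNγ for 6 h. All groups went through selection for CD45, a surface protein of leukocytes, and each had 2 samples. Whether the naïve groups also received dimerizer, and whether the samples of a group came from separate animals, is not given in the sources used here, so that p-values measure the spread between these samples, which may be technical. The methods give 6 days of differentiation and the labels 7.

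Histone mRNAs of this class differ from other mRNAs. They are made mainly in S phase, when DNA is replicated, their genes have no introns in the coding part and lie in clusters, and most of the mRNAs end in a conserved stem-loop in place of a poly(A) tail. The stem-loop-binding protein Slbp and the U7 snRNP, with its proteins Lsm10 and Lsm11, direct their 3′ end cleavage, and the transcription coactivator Npat turns the genes on under cyclin E and Cdk2. Since histone mRNAs lack a tail, they are seen in libraries made after rRNA depletion, as here, and largely missed after poly(A) selection.

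Most of the genes sit in a few clusters. On chromosome 13 of GRCm39 (mm39, the build named by the submitters), 22 lie between 21899933 and 22227846 and 30 between 23715220 and 24118834. A further 10 lie on chromosome 3, 3 on chromosome 11, and H4c16 alone on chromosome 6.

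The label of the class was checked against the 3′ stem-loop. Within 100 bases after an annotated stop codon, 64 of the 66 genes carried a hairpin of 16 bases with a stem of 6 base pairs (G-T pairs allowed) that opens with a pair of G bases and closes with a pair of C bases, around a loop of 4 bases with T at the first and the third. In the same window it was found in 60 of 21561 other protein-coding genes (0.278%). H2ac22 and H2bc21 had none in this window. It began a median of 30 bases after the stop (21 to 58). The following sites show its 8 forms, read from the GRCm39 genome on the gene's own strand with 5 flanking bases, and the capitals mark the hairpin.
H1f2: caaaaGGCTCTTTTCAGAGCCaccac
H2bc3: ccaaaGGCTCTTTTAAGAGCCaccca
H2ac20: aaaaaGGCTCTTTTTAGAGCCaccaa
H3c8: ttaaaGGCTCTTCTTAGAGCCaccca
H4c4: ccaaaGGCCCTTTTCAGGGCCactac
H4c14: ctaacGGCCCTTTTTAGGGCCaacca
H4c2: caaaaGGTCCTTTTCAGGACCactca
H4c1: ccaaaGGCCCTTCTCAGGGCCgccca
The form in H1f2 (chr13:23923490-23923515, plus strand) was shared by 41 genes of the H1, H2A, H2B and H3 types. The form in H2bc3 (chr13:23931181-23931206, plus strand) occurred in 8 genes, namely H2ac21, H2bc1, H2bc3, H2bc12, H2bc13, H3c3, H3c6 and H3c7. H2ac20 (chr3:96127729-96127754, minus strand) and H3c8 (chr13:23720054-23720079, plus strand) each had a form of their own. The H4 genes shared none of these. The form in H4c4 (chr13:23765928-23765953, plus strand) was that of 8 H4 genes, the forms in H4c14 (chr3:96170250-96170275, minus strand) and H4c2 (chr13:23941344-23941369, plus strand) that of 2 each, and H4c1 (chr13:23944778-23944803, minus strand) had its own. Of 11 variant histones, 1 (H2ax) had such a hairpin in the window.

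Many copies encode the same protein with nearly the same sequence, which limits what counts per gene mean. The 13 H4 genes had 12 distinct coding sequences and encoded 1 protein of 103 residues, and the 12 H3 genes encoded 3 proteins. Of these 3, 1 came from H3c14 alone, whose annotated coding sequence has 543 bases against 408 in the other H3 genes. The 17 H2A genes encoded 9 proteins and the 19 H2B genes 12, while the 5 H1 genes encoded 5. The libraries were read in 50 cycles from a single end, and counting, run with default settings, drops reads that map to several positions. In the annotated exons, the share of 50-base windows found once in the genome ran from 0% (H2ac19, H2ac23, H2bc23 and H2bc24) to 100% (H1f1, H1f5 and H2bc18), with a median of 53.0%. The 29 genes under 50% had a median level of 66.8 normalized counts, and the 37 genes at 50% or more had 215. Levels below are thus counts of the reads that could be placed, sums by type undercount types with many identical copies, and no gene's level is compared with another's except where stated.

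**Figure D1:**
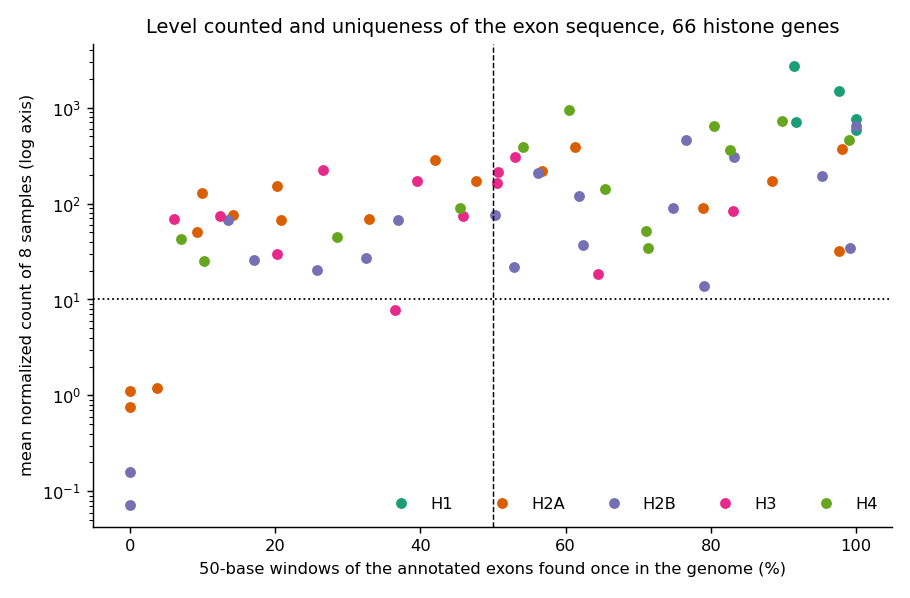
Mean normalized count over the 8 samples (log axis) against the share of 50-base exon windows found once in the genome (%), 1 point per histone gene, coloured by type. The dotted line marks the minimum of 10 normalized counts for testing and the dashed line 50%. The 4 genes without a unique window had means close to 0, and the 5 H1 genes lie at the upper right, between 91.5% and 100% unique.

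Tests were run on the 60 histone genes whose mean reached 10 normalized counts, among 16309 genes in all, namely 5 H1, 14 H2A, 17 H2B, 11 H3 and 13 H4. H2ac18, H2ac19, H2ac23, H2bc23 and H2bc24 had 0 to 5 reads in every sample and H3c15 had 3 to 12, and none of these was tested. A gene is called where limma's adjusted p over all tested genes was under 0.05, and log2 differences are on the scale of log2(normalized count + 1). Sequencing depth ran from 3481288 reads (Ctrl replicate 1) to 12020918 (Ctrl replicate 2). In Ctrl, 10 macrophage markers summed to 142302 and 136095 normalized counts, and in LPS to 124402 and 132027. Eff had 141366 and 164307, and LPSEff 134615 and 180250. Csf1r, 1 of them, had 3835 to 6113 over all samples, while others moved, as given below. The summed level of 16 fibroblast markers was 192 and 466 normalized counts (Ctrl), 854 and 965 (LPS), 2617 and 5378 (Eff) and 7706 and 6721 (LPSEff). NIH-3T3 cells carry the same mouse histone genes, so reads from leftover fibroblast material cannot be told apart from those of Mϕ, and the part of these markers in the results was not tested. All 6 erythroid and all 6 lymphocyte markers were below the minimum for testing, with sums of at most 34.5 normalized counts. The summed level of 10 granulocyte and progenitor markers was 751 to 1144 normalized counts in Ctrl and 1155 to 2723 in the other groups.

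Summed over all 66 genes, the counts were 24670.4 and 27872 (Ctrl), 8364 and 12389 (LPS), 20505 and 22882 (Eff) and 5561 and 8461 (LPSEff) normalized counts, replicate 1 first. Histone mRNA was thus lower in both stimulated groups than in both unstimulated groups, without overlap. The mean fell from 26271 ± 2264 (SD, n = 2) in Ctrl to 10377 ± 2846 in LPS, 2.53-fold lower, and from 21693 ± 1681 in Eff to 7011 ± 2051 in LPSEff, 3.09-fold lower. Of all recovered reads, the genes took 0.372% (95% Wilson interval 0.366 to 0.379) and 0.401% (0.397 to 0.405) in Ctrl. In LPS the share was 0.0987% (0.0964 to 0.101) and 0.131% (0.128 to 0.133). Eff had 0.311% (0.307 to 0.315) and 0.333% (0.329 to 0.336), and LPSEff had 0.0623% (0.0609 to 0.0638) and 0.0892% (0.0871 to 0.0914). These intervals cover counting error only. In every group replicate 2 was above replicate 1, by 1.12-fold to 1.52-fold. In bulk samples, fewer cells in S phase and less histone mRNA per cell cannot be told apart.

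All 5 types moved the same way. The H1 sum fell to 0.463 of Ctrl in LPS, H2A to 0.313, H2B to 0.336, H3 to 0.310 and H4 to 0.409. With LPSEff set against Eff, the ratios were 0.342 for H1, 0.252 for H2A, 0.311 for H2B, 0.243 for H3 and 0.378 for H4. Both stimulated samples were below both unstimulated samples for each type. H1 took 37.5% of the histone counts in Ctrl and 44.0% in LPS, H3 9.19% and 7.20%, and H4 23.2% and 24.0%. In Eff and LPSEff, H1 took 36.4% and 38.5%, H3 9.64% and 7.26%, and H4 24.1% and 28.2%. The sums have no test of their own, because the genes were chosen as a list.

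**Figure D2:**
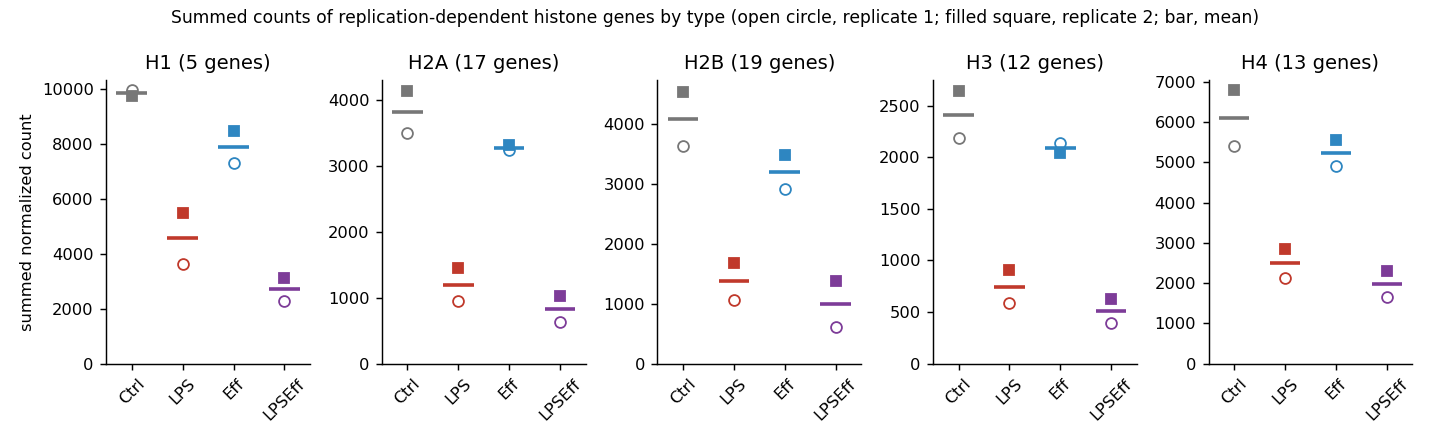
Summed normalized counts by histone type in each sample of Ctrl, LPS, Eff and LPSEff, with replicate 1 as open circles, replicate 2 as filled squares and the group mean as a bar. In each panel both LPS and both LPSEff samples lie below all Ctrl and Eff samples.

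Gene by gene, LPS/IFNγ lowered 42 of the 60 tested histone genes and raised 0 in naïve Mϕ. Over all tested genes, 11.6% were called lower and 12.4% higher in this comparison. All 60 had a lower mean in LPS, with a median log2 difference of −1.75 (3.37-fold) against −0.01 over all genes. Both LPS samples were below both Ctrl samples for 58 of 60, against 30.9% of all tested genes. In efferocytic Mϕ (LPSEff vs Eff), 50 of 60 were called lower and 0 higher, where 8.95% of all tested genes were called lower and 10.7% higher. Again all 60 differences were below 0, and the median was −2.01 (4.04-fold) against 0.01 over all genes. Both LPSEff samples were below both Eff samples for 57 of 60, against 30.4% of all tested genes. The comparisons share no samples, but both use the spread from the same fit to all samples, so their calls are not independent. In both, 40 genes were called, 95.2% of the first set and 80.0% of the second. With the replicate number as a block in the fit, 58 of 60 were called lower in LPS vs Ctrl (20.7% of all tested genes) and 57 in LPSEff vs Eff (18.0%). By type, the block called 5 H1, 14 H2A, 17 H2B, 10 H3 and 12 H4 genes lower in LPS vs Ctrl. In LPSEff vs Eff it called 5, 14, 17, 10 and 11. Below, for genes given with a standard error, the adjusted p with the block is added where it changes a call. Other genes that only the block called are not marked one by one. The share of all tested genes that the block called higher is not given here. List counts called higher with the block thus have no such share beside them. Leaving out 1 library reduced the first count to 25 (without Ctrl replicate 1), 20 (without Ctrl replicate 2) or 24 (without LPS replicate 1), and the second to 24 (without Eff replicate 1), 27 (without Eff replicate 2) or 28 (without LPSEff replicate 1).

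**Figure D3:**
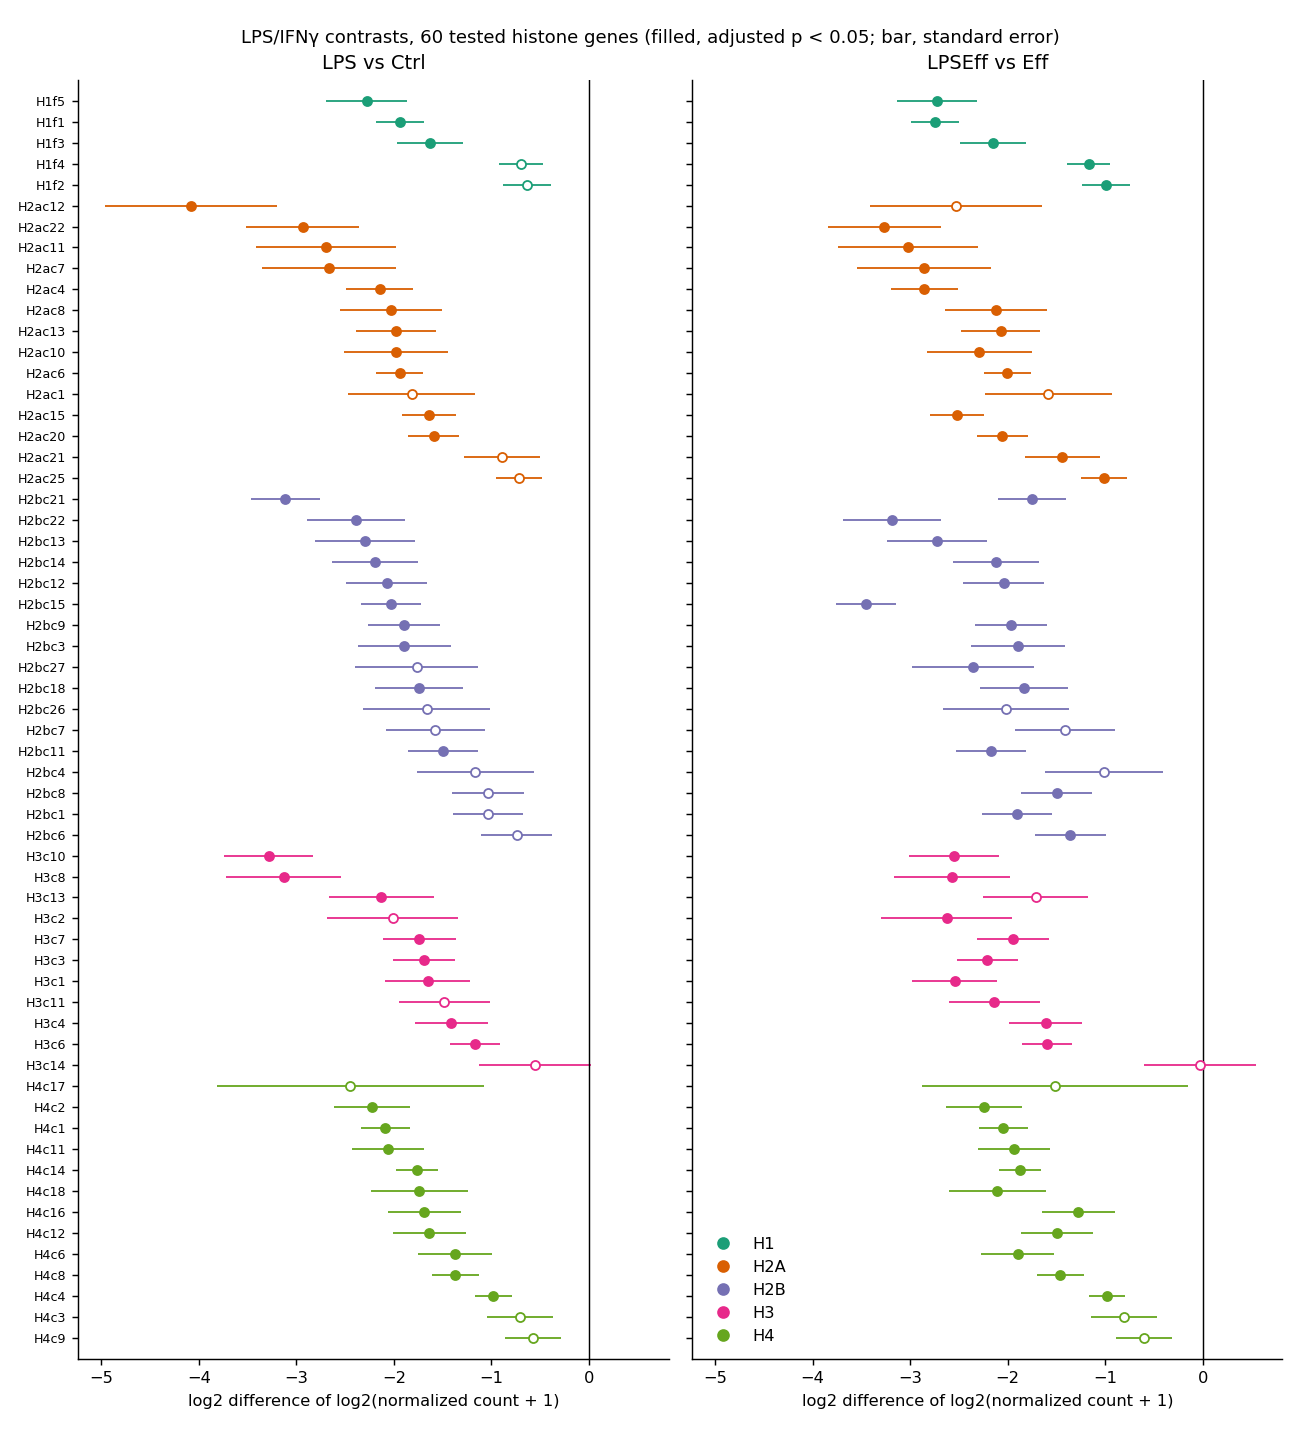
Log2 difference with standard error for each of the 60 tested histone genes in LPS vs Ctrl (left) and LPSEff vs Eff (right), sorted within type. Filled points were called. Every point lies below 0, and H3c14 lies nearest to it on both sides, at −0.55 and −0.03.

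H1 proteins are linker histones, which bind the DNA where it enters and leaves the nucleosome. Of the 5 H1 genes, 3 fell in LPS (5 with the block) and 5 in LPSEff vs Eff. H1f2 was the most abundant histone gene of all by count, with 3753 and 3749 normalized counts (Ctrl), 1956 and 2987 (LPS), 2743 and 3462 (Eff) and 1385 and 1718 (LPSEff). Its stimulated samples were all below its unstimulated samples of the same comparison, and it had the smallest differences of the H1 genes, −0.63 (SE 0.25, adjusted p = 0.102, with the block 0.008) in LPS vs Ctrl and −0.997 (SE 0.25, adjusted p = 0.024) in LPSEff vs Eff. H1f3 had 2373 and 2629 normalized counts (Ctrl), 604 and 1083 (LPS), 1965 and 2316 (Eff) and 359 and 639.6 (LPSEff). It fell by more, with −1.63 (SE 0.34, adjusted p = 0.0103) and −2.15 (SE 0.34, adjusted p = 0.00351). H1f1, which has no shared 50-base window, had 1590.0 and 1471 normalized counts (Ctrl), 383 and 416 (LPS), 890.3 and 1033 (Eff) and 110.0 and 183 (LPSEff). Its differences were −1.93 (SE 0.25, adjusted p = 0.00122) and −2.75 (SE 0.25, adjusted p = 0.000226). H1f5, also fully unique, gave −2.28 (SE 0.41, adjusted p = 0.00578) and −2.73 (SE 0.41, adjusted p = 0.00304). H1f4 shares 528 annotated exon bases with H2bc6 on the same strand and is thus uncertain, with −0.69 (SE 0.22, adjusted p = 0.0554, with the block 0.013) and −1.17 (SE 0.22, adjusted p = 0.00826). Per kilobase of coding sequence, the order of group means in Ctrl was H1f2 (5898 normalized counts), H1f3 (3772), H1f1 (2395), H1f5 (1600) and H1f4 (1535), and in LPSEff H1f2 (2440), H1f3 (753), H1f4 (549), H1f1 (229) and H1f5 (215). The counts cover whole annotated exons, of 1560 bases for H1f2, 7425 for H1f3, 1930 for H1f4, 741 for H1f1 and 743 for H1f5. The order is thus not corrected for exon length or uniqueness and is no ranking of expression.

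H2A and H2B form the dimers that flank the H3 and H4 tetramer of the nucleosome. Of the 14 tested H2A genes, 11 fell in LPS and 12 in LPSEff vs Eff. H2ac20 had 531 and 659 normalized counts (Ctrl), 159 and 241 (LPS), 583 and 644 (Eff) and 126 and 170.1 (LPSEff). Both stimulated groups were well below the unstimulated ones, with −1.59 (SE 0.26, adjusted p = 0.0037) and −2.06 (SE 0.26, adjusted p = 0.00126). H2ac4 had 524 and 588 normalized counts (Ctrl), 93.1 and 167 (LPS), 424 and 380.4 (Eff) and 41.2 and 72.3 (LPSEff), and fell with −2.15 (SE 0.34, adjusted p = 0.00324) and −2.86 (SE 0.34, adjusted p = 0.00096). H2ac25 overlaps an exon of Trim17 on its strand, had 537 and 505 normalized counts (Ctrl), 289.7 and 345 (LPS), 526 and 348 (Eff) and 196 and 227 (LPSEff), and showed the smallest differences of the type, −0.72 (SE 0.24, adjusted p = 0.0616, with the block 0.0157) and −1.01 (SE 0.24, adjusted p = 0.0192). The other called H2A genes in LPS vs Ctrl had log2 differences of −4.08 for H2ac12, −2.94 for H2ac22, −2.70 for H2ac11, −2.67 for H2ac7, −2.03 for H2ac8, −1.98 for H2ac13, −1.98 for H2ac10, −1.94 for H2ac6 and −1.64 for H2ac15. H2ac12 rests on 1 read in LPS replicate 1, and 9.27% of its windows were unique. In LPSEff vs Eff the other called H2A genes had −3.27 for H2ac22, −3.02 for H2ac11, −2.86 for H2ac7, −2.52 for H2ac15, −2.29 for H2ac10, −2.12 for H2ac8, −2.07 for H2ac13, −2.005 for H2ac6 and −1.44 for H2ac21. H2ac1, a gene known mainly from the testis, was not called in either, with −1.82 (SE 0.65, adjusted p = 0.0812, with the block 0.00217) and −1.59 (SE 0.65, adjusted p = 0.133, with the block 0.00546).

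Of the 17 tested H2B genes, 10 fell in LPS (17 with the block) and 14 in LPSEff vs Eff. H2bc18, fully unique in its exons but overlapped by the predicted gene Gm42743, had 743 and 1319 normalized counts (Ctrl), 254 and 343 (LPS), 840.4 and 1101 (Eff) and 166 and 435 (LPSEff). Its log2 differences were −1.74 (SE 0.45, adjusted p = 0.0259) and −1.83 (SE 0.45, adjusted p = 0.024). H2bc3 had 832 and 946 normalized counts (Ctrl), 172 and 330.0 (LPS), 449 and 635 (Eff) and 85.5 and 239 (LPSEff), and fell with −1.89 (SE 0.48, adjusted p = 0.0236) and −1.89 (SE 0.48, adjusted p = 0.0266). H2bc4 was more uneven, with 379 and 581 normalized counts (Ctrl), 125 and 346 (LPS), 222 and 451 (Eff) and 96.6 and 253 (LPSEff). Its 2 samples per group lay far apart, and it was not called, at −1.17 (SE 0.60, adjusted p = 0.209, with the block 0.0011) and −1.01 (SE 0.60, adjusted p = 0.295, with the block 0.00299). The remaining called H2B genes had log2 differences of −3.11 for H2bc21, −2.39 for H2bc22, −2.29 for H2bc13, −2.19 for H2bc14, −2.07 for H2bc12, −2.03 for H2bc15, −1.90 for H2bc9 and −1.496 for H2bc11 in LPS vs Ctrl. In LPSEff vs Eff these were −3.46 for H2bc15, −3.19 for H2bc22, −2.73 for H2bc13, −2.36 for H2bc27, −2.17 for H2bc11, −2.12 for H2bc14, −2.04 for H2bc12, −1.97 for H2bc9, −1.91 for H2bc1, −1.75 for H2bc21, −1.500 for H2bc8 and −1.36 for H2bc6. H2bc7 and H2bc26 were called in neither comparison, and with the block in both (adjusted p by limma 0.0194 and 0.0348 for H2bc7, and 0.00175 and 0.000573 for H2bc26).

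Many H2A and H2B genes stand back to back and share the DNA between their starts. There were 11 such pairs, of which 10 had both genes tested. Between partners, the log2 differences in LPS vs Ctrl lay 0.31 to 2.00 apart (median 0.97), and in LPSEff vs Eff 0.08 to 1.44 apart (median 0.64). For H2ac15 and H2bc15 they were −1.64 and −2.03 in LPS vs Ctrl, and −2.52 and −3.46 in LPSEff vs Eff. H2ac20 and H2bc21 had −1.59 and −3.11, then −2.06 and −1.75. For H2ac8 and H2bc8 they were −2.03 and −1.04, then −2.12 and −1.500. The shared gaps of these 3 pairs are shown because H2bc15 and H2bc21 recur below and because the last holds the octamer next to a TATA match. They run between the annotated starts on the plus strand of GRCm39. Capitals mark matches, on either strand, to 4 short motifs. The TATA box was searched as TATAAA. The letters CCAAT stand for the CCAAT box. For the octamer, a binding sequence of Oct1, the search used ATTTGCAT. The GC box was searched as GGGCGG. No marked motifs overlap in these gaps.
H2ac15/H2bc15 (chr13:21937998-21938292): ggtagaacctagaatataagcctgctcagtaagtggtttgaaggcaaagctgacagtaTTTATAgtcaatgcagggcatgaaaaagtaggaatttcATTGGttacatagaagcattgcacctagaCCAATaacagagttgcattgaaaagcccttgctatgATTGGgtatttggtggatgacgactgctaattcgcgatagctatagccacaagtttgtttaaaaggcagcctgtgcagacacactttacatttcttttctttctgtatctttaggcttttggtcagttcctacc
H2ac20/H2bc21 (chr3:96128197-96128434): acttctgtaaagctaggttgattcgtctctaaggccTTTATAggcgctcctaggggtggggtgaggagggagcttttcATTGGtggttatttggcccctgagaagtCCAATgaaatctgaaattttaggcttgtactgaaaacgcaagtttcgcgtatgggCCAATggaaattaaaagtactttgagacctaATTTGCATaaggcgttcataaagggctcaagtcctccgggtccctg
H2ac8/H2bc8 (chr13:23755395-23755569): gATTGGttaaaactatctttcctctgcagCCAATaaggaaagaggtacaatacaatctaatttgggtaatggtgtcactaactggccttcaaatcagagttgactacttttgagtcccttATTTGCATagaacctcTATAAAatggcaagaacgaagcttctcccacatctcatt
In windows of 300 bases around the annotated start (250 before it and 50 from it), TATAAA was found in 51.5% of the 66 genes against 13.7% of 21627 protein-coding genes. CCAAT occurred in 78.8% against 39.8%, with all 17 H2A genes and 3 of 13 H4 genes. ATTTGCAT occurred in 14 of the 66 (21.2%) against 1.69%, in 7 H2A and 7 H2B genes and in no other type. GGGCGG occurred in 40.9% against 35.8%. These are letter matches, not measured sites.

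H3 and H4 form the core of the nucleosome. Of the 11 tested H3 genes, 8 fell in LPS and 9 in LPSEff vs Eff. H3c3 had 425 and 576 normalized counts (Ctrl), 116 and 199 (LPS), 476 and 468 (Eff) and 82.3 and 124 (LPSEff), a clear separation with −1.69 (SE 0.32, adjusted p = 0.0065) and −2.21 (SE 0.32, adjusted p = 0.00223). H3c6 had 383 and 316 normalized counts (Ctrl), 158 and 150.3 (LPS), 368 and 233 (Eff) and 103 and 90.1 (LPSEff), with −1.17 (SE 0.26, adjusted p = 0.0132) and −1.59 (SE 0.26, adjusted p = 0.00399). H3c7 had 415 and 334 normalized counts (Ctrl), 89.2 and 138 (LPS), 306 and 275 (Eff) and 50.7 and 109 (LPSEff), with −1.74 (SE 0.37, adjusted p = 0.0118) and −1.95 (SE 0.37, adjusted p = 0.00842). These 3 genes share the hairpin form shown for H2bc3. The other called H3 genes had log2 differences of −3.29 for H3c10, −3.13 for H3c8, −2.13 for H3c13, −1.65 for H3c1 and −1.41 for H3c4 in LPS vs Ctrl and −2.63 for H3c2, −2.57 for H3c8, −2.55 for H3c10, −2.55 for H3c1, −2.14 for H3c11 and −1.61 for H3c4 in LPSEff vs Eff. H3c14, which overlaps the predicted gene Gm20634, was called in neither, also with the block, and had 8.76 to 34.3 normalized counts over all samples.

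Of the 13 tested H4 genes, 10 fell in each comparison. H4c6 had 1211 and 1586 normalized counts (Ctrl), 414 and 689.5 (LPS), 1224 and 1622 (Eff) and 262 and 542 (LPSEff), with −1.37 (SE 0.38, adjusted p = 0.0324) and −1.90 (SE 0.38, adjusted p = 0.01). H4c4 had 1211 and 1047 normalized counts (Ctrl), 542 and 601 (LPS), 859.6 and 706 (Eff) and 412 and 376 (LPSEff), a smaller fall of −0.98 (SE 0.19, adjusted p = 0.00712) and −0.98 (SE 0.19, adjusted p = 0.00809). H4c3 had 615 and 1217 normalized counts (Ctrl), 444 and 629.6 (LPS), 619 and 808 (Eff) and 361 and 449 (LPSEff). Its Ctrl replicate 1 lay within the range of LPS, and it was not called, at −0.71 (SE 0.34, adjusted p = 0.176, with the block 0.00711) and −0.81 (SE 0.34, adjusted p = 0.138, with the block 0.00376). The other called H4 genes had −2.22 for H4c2, −2.09 for H4c1, −2.06 for H4c11, −1.76 for H4c14, −1.74 for H4c18, −1.69 for H4c16, −1.64 for H4c12 and −1.37 for H4c8 in LPS vs Ctrl. In LPSEff vs Eff they had −2.24 for H4c2, −2.11 for H4c18, −2.04 for H4c1, −1.94 for H4c11, −1.88 for H4c14, −1.49 for H4c12, −1.46 for H4c8 and −1.28 for H4c16. H4c9 and H4c17 were called in neither, while the block called H4c17 in LPS vs Ctrl (limma, adjusted p = 0.00931). H4c17, with 10.2% of its windows unique, had 32.4 and 65.3 normalized counts (Ctrl), 1.29 and 31.5 (LPS), 10.5 and 38.1 (Eff) and 1.58 and 20.3 (LPSEff), so that replicate 1 was below replicate 2 in each group.

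Lower means were found at each locus. In LPS vs Ctrl, 16 of 19 tested genes of the first chromosome 13 cluster were called, 20 of 30 of the second, 5 of 7 on chromosome 3, 0 of 3 on chromosome 11 (all 3 at an unadjusted p under 0.05, and 0 by edgeR) and H4c16 on chromosome 6. With the block, 18, 30, 6 and 3 were called in these clusters, and H4c16 again. The median log2 difference was −2.07, −1.67, −1.74 and −1.66. In LPSEff vs Eff 16, 26, 5 and 2 were called (17, 30, 6 and 3 with the block). The medians there were −2.17, −1.93, −1.75 and −2.02. The 37 genes with at least 50% unique windows had medians of −1.66 and −1.89, and 23 and 31 of them were called. The 23 tested genes under 50% had −2.07 and −2.29, with 19 called in each. For the 24 genes whose annotation runs over 100 bases past the hairpin, the medians were −1.52 and −1.60, and for the 34 whose annotation ends sooner −1.96 and −2.16. These are descriptions of groups that share samples, with no test between them.

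Efferocytosis without stimulation called 0 of the 60 histone genes lower and 0 higher by limma, where 0.0368% of all tested genes were called lower and 0.215% higher. At an unadjusted p under 0.05 there were 4, and edgeR, DESeq2 and the fit with the replicate block also called 0. The median difference in Eff vs Ctrl was −0.32 (−0.01 over all genes), and 49 of 60 were below 0 (42 without Ctrl replicate 2). Both Eff samples were below both Ctrl samples for 26 of 60, against 17.8% of all tested genes. H1f1 had the lowest value of its type at −0.67 (SE 0.25, adjusted p = 0.654), and all 5 H1 genes had both Eff samples below both Ctrl samples. H4c1 had −0.68 (SE 0.25, adjusted p = 0.648) and H4c4 −0.53 (SE 0.19, adjusted p = 0.609). The summed level was 1.21-fold lower in Eff than in Ctrl, without overlap. Fibroblast markers were higher in both Eff samples, at 2617 and 5378 summed normalized counts against 192 and 466, and their part in these differences was not tested.

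In stimulated Mϕ, efferocytosis lowered 2 of 60, H1f1 and H2bc15, where 0.0429% of all tested genes were called lower and 0.73% higher. H1f1 went from 383 and 416 normalized counts in LPS to 110.0 and 183 in LPSEff, a log2 difference of −1.49 (SE 0.25, adjusted p = 0.0438). H2bc15, with 13.6% of its windows unique, had 131 and 136 normalized counts (Ctrl), 34.9 and 29.4 (LPS), 115 and 82.6 (Eff) and 7.13 and 8.88 (LPSEff). Its LPSEff samples were the lowest of all 8, and the difference to LPS was −1.88 (SE 0.31, adjusted p = 0.0414). With the replicate number as a block, 9 of 60 were called lower and 0 higher, where 2.65% of all tested genes were called lower. These were H1f1, H1f2, H1f3, H1f4, H2ac4, H2bc6, H2bc11, H2bc15 and H3c1, with blocked adjusted p by limma from 0.00133 to 0.0385 and log2 differences from −1.88 to −0.65. H1 genes thus make up 4 of these 9. The median level of H1 genes was 760 normalized counts, against 67.2 (H2B) to 141 (H4) for the other types. The part of level in these calls was not tested. The median over the 60 was −0.55 (0.00 over all genes), and 52 were below 0. This rested on single libraries. Without LPSEff replicate 1 the median was −0.11 and 36 of 60 were below 0, and without LPS replicate 2 it was −0.25 with 45 below 0. It was −0.84 without LPS replicate 1 (55 below 0) and −0.86 without LPSEff replicate 2 (53 below 0). Both LPSEff samples were below both LPS samples for 23 of 60, against 17.0% of all tested genes. The summed level was 1.48-fold lower in LPSEff than in LPS, with overlapping samples. This log2 ratio of −0.57 became −0.25 without LPS replicate 2, −0.29 without LPSEff replicate 1 and −0.90 without LPSEff replicate 2. The H1 sum did not overlap, at 3645 and 5489 in LPS and 2267 and 3139 in LPSEff. Neither H1f1 nor H2bc15 was called when any 1 of the 8 libraries was left out, where the count was 0 each time. The summed fibroblast markers here were 7706 and 6721 in LPSEff against 854 and 965 in LPS, and their part was likewise not tested.

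**Figure D4:**
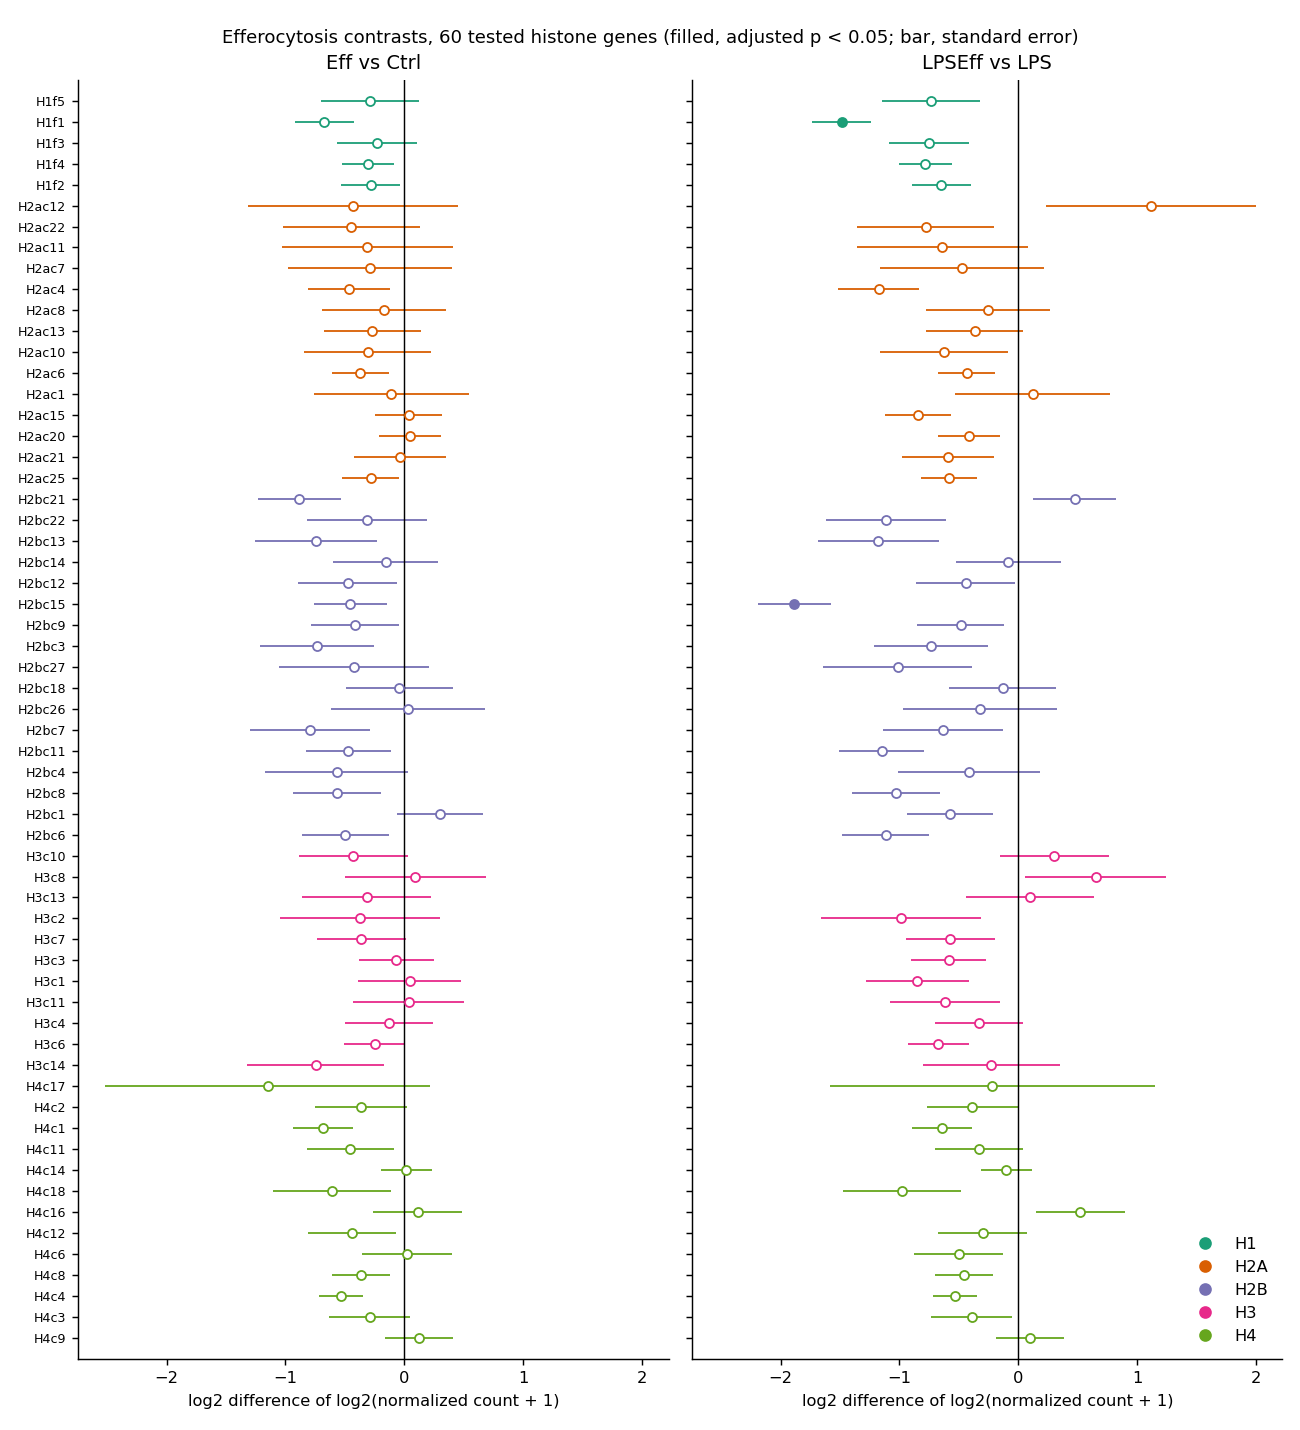
Log2 difference with standard error for each of the 60 tested histone genes in Eff vs Ctrl (left) and LPSEff vs LPS (right), in the same order as in the plot of the LPS/IFNγ comparisons. The only filled (called) points are H1f1 and H2bc15 on the right, and most points on both sides lie below 0.

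The LPS/IFNγ effect was compared between efferocytic and naïve Mϕ by an interaction. It called 0 of the 60 genes and 0 of all 16309 by limma, and edgeR and DESeq2 also called 0 of the 60. At an unadjusted p under 0.05 there were 3 of 60 (5.00%), against 1.91% of all tested genes. With the block there were 5 of 60, against 1052 of all 16309, and it called 0. H2bc15 (−1.43, SE 0.44) and H1f1 (−0.81, SE 0.35) had a difference of effects below 0, and H2bc21 (1.36, SE 0.50) one above 0. The adjusted p by limma was 1.00 for each. The median difference between both effects was −0.20 (0.01 over all genes), and 44 of 60 were below 0, against 7904 of all 16309.

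Genes that process histone mRNA or drive its synthesis moved in both directions. Of 22 listed factors, all tested, 8 fell and 2 rose in LPS vs Ctrl, and 5 fell and 2 rose in LPSEff vs Eff, with medians of −0.56 and −0.45. The block gave 12 and 4, then 12 and 3. Slbp went from 365 ± 43.3 to 169 ± 17.2 normalized counts in LPS vs Ctrl, a log2 difference of −1.11 (SE 0.20, adjusted p = 0.0059). In efferocytic Mϕ it went from 288 ± 26.2 to 161 ± 12.8 normalized counts, with −0.83 (SE 0.20, adjusted p = 0.0223). Npat was not called, at −0.54 (SE 0.25, adjusted p = 0.167, with the block 0.0446) and −0.41 (SE 0.25, adjusted p = 0.316). The largest called differences in LPS vs Ctrl were −2.61 for Zfp473, −2.07 for Ccne2, −1.32 for Ncbp2 and −1.21 for Ccne1. Zfp473 is the zinc finger protein of the stem-loop complex (ZFP100), Ncbp2 a subunit of the cap-binding complex, and Ccne1 and Ccne2 are cyclin E genes. In LPSEff vs Eff the largest were −1.97 for Ccne2, −1.32 for Ccne1, −1.08 for Cdk2, 1.01 for Tut7 and −0.96 for Ncbp1, and Zfp473 was not called at −1.14 (SE 0.39, adjusted p = 0.0804, with the block 0.021). Tut7, a uridyltransferase that marks histone mRNAs for decay, rose in both, with 1.07 (SE 0.18, adjusted p = 0.00394) and 1.01 (SE 0.18, adjusted p = 0.00602). Hinfp, a transcription factor of H4 genes, rose with 0.73 (SE 0.23, adjusted p = 0.0476) and 0.91 (SE 0.23, adjusted p = 0.024). The efferocytosis comparisons called 0 of the 22 by limma, edgeR and DESeq2, with 1 in each at an unadjusted p under 0.05 and medians of −0.07 and −0.05. The block called Ncbp2 higher in LPSEff vs LPS, at 0.72 (SE 0.30, adjusted p = 0.46, with the block 0.0491).

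Histone variants are related proteins, and many of them, such as H3.3 and H2A.Z, are made outside S phase from mRNAs with a tail. Of 11 variants, 2 fell and 1 rose in LPS vs Ctrl (4 and 2 with the block), and 2 fell and 0 rose in LPSEff vs Eff (4 and 0). The 2 that fell were H2ax and Cenpa, of which H2ax carries the hairpin of the replication-dependent class and Cenpa, the variant that marks centromeres, is known to be made mainly in G2. H2ax went from 1050.4 ± 90.5 to 494 ± 5.28 normalized counts, with −1.08 (SE 0.25, adjusted p = 0.0162), and with LPSEff against Eff had −1.53 (SE 0.25, adjusted p = 0.0042). Cenpa had −0.97 (SE 0.25, adjusted p = 0.0237) and −1.01 (SE 0.25, adjusted p = 0.0233). H1f10 rose in LPS vs Ctrl with 1.504 (SE 0.39, adjusted p = 0.025). By the block, H2az2 and H2aj were also called lower in both comparisons. H2az2 had −0.53 (SE 0.43, adjusted p = 0.427, with the block 0.0359) and −0.53 (SE 0.43, adjusted p = 0.454, with the block 0.0414). H2aj had −0.69 (SE 0.25, adjusted p = 0.0793, with the block 0.0114) and −0.67 (SE 0.25, adjusted p = 0.0958, with the block 0.0145). Limma without the block did not call H3f3b, H3f3a, H2az1 or H1f0. H3f3b had 0.52 (SE 0.25, adjusted p = 0.178, with the block 0.0105) and 0.30, H3f3a 0.21 and 0.52, H2az1 0.04 and −0.05 and the linker variant H1f0 −0.05 and −0.37. Efferocytosis called 0 of the 11 by limma, edgeR and DESeq2 in either context, and 0 had an unadjusted p under 0.05, while the block called H1f0 lower in LPSEff vs LPS, at −0.56 (SE 0.33, adjusted p = 0.645, with the block 0.0408).

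Among 21 histone chaperones, 7 fell and 1 rose in LPS vs Ctrl, and 3 fell and 1 rose in LPSEff vs Eff (medians −0.49 and −0.40). With the block these were 12 and 3, then 12 and 2. Asf1b, which hands H3 and H4 to the replication fork, fell with −1.86 (SE 0.23, adjusted p = 0.0011) and −2.16 (SE 0.23, adjusted p = 0.000566). Chaf1b, a subunit of the chromatin assembly factor CAF-1, fell with −1.76 (SE 0.28, adjusted p = 0.00299) and −1.22 (SE 0.28, adjusted p = 0.0168). In LPS vs Ctrl the next largest were Nasp with −1.06 (SE 0.26, adjusted p = 0.02) and Hjurp with −0.88 (SE 0.25, adjusted p = 0.0364). Ipo4 fell in LPSEff vs Eff, with −0.70 (SE 0.19, adjusted p = 0.0337). Daxx, a chaperone of the variant H3.3, rose from 328 ± 68.3 to 2912 ± 356 normalized counts, with 3.16 (SE 0.20, adjusted p = 5.39e-05), and with 2.87 (SE 0.20, adjusted p = 6.13e-05) in efferocytic Mϕ. For efferocytosis, limma, edgeR and DESeq2 called 0 of the 21 in either context, with 1 and 2 at an unadjusted p under 0.05 and medians of −0.02 and 0.03. Atrx was called lower in LPSEff vs LPS by the block, at −0.85 (SE 0.44, adjusted p = 0.587, with the block 0.0167).

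Genes of DNA replication fell alongside. Of 30 S phase genes, 22 fell and 0 rose in LPS vs Ctrl and 20 fell and 0 rose in LPSEff vs Eff, with medians of −1.25 and −1.16. With the block, 24 and 25 were called lower and 0 higher. The largest called differences in LPS vs Ctrl were −2.44 for Cdc6, −2.19 for Mcm2, −2.13 for Mcm7, −2.003 for Rrm2 and −1.73 for Ccna2. In LPSEff vs Eff they were −2.18 for Rrm2, −1.95 for Cdc6, −1.80 for Ccna2, −1.79 for Pold1 and −1.78 for Mcm6. Cdc6 and the Mcm genes license origins, Rrm2 is a subunit of ribonucleotide reductase, Pold1 a DNA polymerase subunit and Ccna2 is cyclin A2. Pcna, the sliding clamp, was called at −1.17 (SE 0.23, adjusted p = 0.00791) in LPS vs Ctrl and not in LPSEff vs Eff, at −0.66 (SE 0.23, adjusted p = 0.0823, with the block 0.0083). Of 16 G2 and mitosis genes, 11 and 8 fell (14 and 14 with the block) and 0 rose, with medians of −1.39 and −1.32. The largest called were −2.20 for Cenpf, −2.18 for Cdc20, −1.92 for Ccnb1, −1.58 for Bub1 and −1.54 for Aurka in LPS vs Ctrl and −1.80 for Ccnb2, −1.56 for Birc5, −1.56 for Plk1, −1.53 for Kif11 and −1.42 for Aurkb in LPSEff vs Eff. Mki67, the antigen used to stain cycling cells, was called in neither, at −0.36 (SE 0.19, adjusted p = 0.217) and −0.503 (SE 0.19, adjusted p = 0.105, with the block 0.0179). With efferocytosis, 0 genes of either list were called by limma without the block, edgeR or DESeq2. The block also called 0 in Eff vs Ctrl. In LPSEff vs LPS it called 3 S phase genes lower (−0.99 for Tk1, −0.69 for Rrm2 and −0.66 for Mcm10) and 1 higher (0.60 for E2f1), and 2 G2 and mitosis genes lower (−0.82 for Ccnb2 and −0.58 for Mki67) and 1 higher (1.10 for Cdc20). At an unadjusted p under 0.05 there were 1 S phase gene without stimulation and 6 with it (medians −0.12 and −0.15), and 1 and 3 G2 and mitosis genes (medians −0.25 and −0.30).

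Of 8 RNAs without a regular poly(A) tail, all had higher means in LPS and in LPSEff, with medians of 0.56 and 0.67, and limma called 1 in LPS vs Ctrl and 0 in LPSEff vs Eff (3 at an unadjusted p under 0.05, and 1 by edgeR). With the block, 4 and 6 were called higher, with no share over all genes to set them against. Malat1 rose in LPS vs Ctrl with 0.74 (SE 0.21, adjusted p = 0.0386). Rmrp had 0.56 (SE 0.27, adjusted p = 0.175, with the block 0.0276) and 0.70 (SE 0.27, adjusted p = 0.109, with the block 0.0106), and Rpph1 had 0.56 (SE 0.27, adjusted p = 0.177) and 0.55 (SE 0.27, adjusted p = 0.199), neither of them called without the block. With efferocytosis limma and edgeR called 0 of the 8, 1 in each context had an unadjusted p under 0.05, and the medians were 0.05 and 0.25, while DESeq2 called Malat1 lower in LPSEff vs LPS. There the block called Malat1 lower and Rn7s1 and Rn7s2 higher (−0.67 for Malat1, 0.83 for Rn7s1 and 0.91 for Rn7s2).

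**Figure D5:**
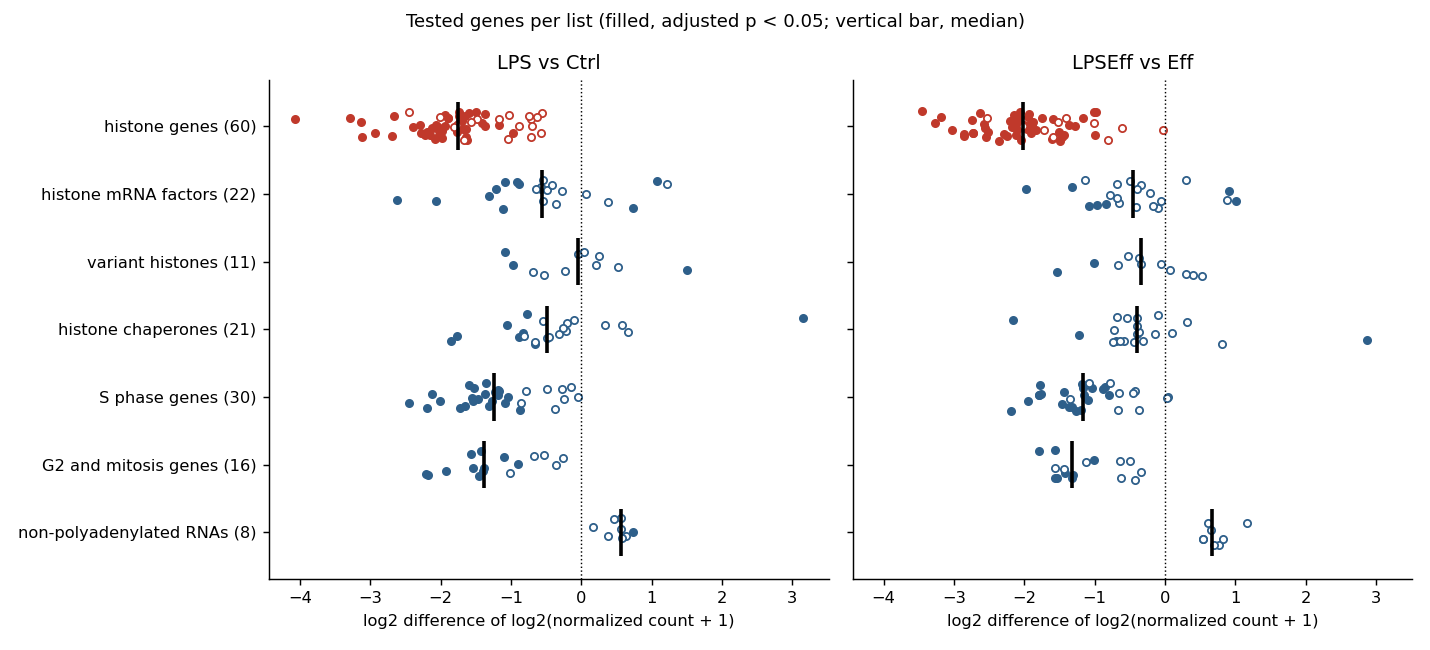
Log2 differences of single genes in LPS vs Ctrl (left) and LPSEff vs Eff (right) for the histone genes (red) and 6 lists (blue), with the number of tested genes beside each name, filled points for called genes and a vertical bar at the median. The histone genes have the lowest medians, −1.75 and −2.01, followed by G2 and mitosis genes (−1.39 and −1.32) and S phase genes (−1.25 and −1.16), and the 8 non-polyadenylated RNAs lie above 0.

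Markers of the cells present also moved. Of 10 macrophage markers, 1 fell and 3 rose in LPS vs Ctrl and 0 fell and 4 rose in LPSEff vs Eff. Cd14 was highest at 3.15 (SE 0.29, adjusted p = 0.00027) and 2.77 (SE 0.29, adjusted p = 0.000512). Lgals3 was lowest, at −0.95 and −0.67. Of 15 tested fibroblast markers, 6 rose with efferocytosis in unstimulated and 8 in stimulated Mϕ and 0 fell, among them Col6a3 with 8.03 (SE 0.84, adjusted p = 0.0183) and 6.26 (SE 0.84, adjusted p = 0.0257). In the LPS/IFNγ comparisons 2 and 1 of them rose. Of 8 tested granulocyte and progenitor markers, 3 rose in LPS vs Ctrl, 1 in LPSEff vs Eff and 1 in Eff vs Ctrl, and 0 fell in any comparison. With the block, 12 fibroblast markers were called higher in each efferocytosis comparison, and 7 and 4 in the LPS/IFNγ comparisons. It called 5 macrophage markers higher in each LPS/IFNγ comparison, 1 lower in each, and 6 and 4 granulocyte and progenitor markers higher, with 1 higher (S100a8) in each efferocytosis comparison. Their part in the histone results was not tested.

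Over the 8 samples, the tested genes outside the class whose log2 level was most like that of the summed histone counts were Lair1 (Pearson r = 0.994), the lncRNA gene D630008O14Rik (0.994), Glod4 (0.993), Cstf2 (0.992) and Cdca5 (0.992). These are descriptions over 8 points from 4 groups that share depth and libraries. Lair1 had 545 and 599 normalized counts (Ctrl), 195 and 275 (LPS), 391.7 and 433 (Eff) and 127 and 190.4 (LPSEff). Cstf2, a subunit of the cleavage stimulation factor, had 319.9 and 336 in Ctrl and 181 and 206 in LPSEff, and was also on the list of histone mRNA factors.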

How the data were processed

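Total RNA was rRNA-depleted and sequenced for 50 cycles from a single end. The authors used cutadapt for trimming, Bowtie2 against rRNA, STAR for mapping to mm39 and HTSeq for counting per gene. The authors deposited a signal per gene, the normalized count (reads divided by 1 size factor per sample). Their annotation release, versions and strand setting are not given in the sources used here. All values were whole multiples of 1 step per sample within 0.01 of a read, which gave the reads (3481288 to 12020918 per sample). Here 3 reads correspond to 1.73 to 5.71 normalized counts, which covers counting error only.

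Names, positions and biotypes came from GENCODE annotation of GRCm39 (98.9% of 55359 identifiers named), and hairpins, windows and gaps were read from that genome. limma 3.58.1 (R 4.3.3) with a trend was fitted to log2(normalized count + 1) of 16309 genes with a mean of at least 10, with 4 group means in 1 fit, and p-values were adjusted over all genes (Benjamini-Hochberg, two-sided). edgeR 4.0.16 and DESeq2 1.42.0 were run on the recovered reads. The tests were checked on simulated counts. These had the same setting of the spread for all genes and no deviation shared by same-numbered samples, unlike the data. The check thus gives no error rate for the data. The lists (histone mRNA factors, variants, chaperones, S phase, G2 and mitosis, non-polyadenylated RNAs and 5 sets of cell markers) come from general knowledge.

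The members and lists were chosen with earlier results of these data known. Named are all called histone genes, the 3 most abundant per type, per list up to 5 with the largest called changes, and Slbp, Npat, H2ax, H2az1, H3f3a, H3f3b, H1f0, Mki67 and Pcna. Uncalled histone genes outside this rule (H2ac1, H2bc7, H2bc26, H3c14, H4c9 and H4c17), Hinfp, Rmrp, Rpph1 and the list genes called only with the block were named after their values were seen.

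The replicate numbers in the sample names pair the samples: over 16309 genes, deviations of same-numbered samples correlated between every 2 groups (r = 0.404 to 0.595). No source says that they share a preparation, so the block was used only as an alternative.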

Additional observations from a re-analysis of the deposited data

Results flagged for a closer look

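H2bc21 stood out because efferocytosis went opposite ways in the 2 contexts without overlap. Its counts were 78.1 and 74.6 normalized counts (Ctrl), 7.76 and 8.12 (LPS), 37.7 and 44.5 (Eff) and 10.3 and 12.7 (LPSEff). The stimulated values rest on few reads, as 3 reads correspond to 3.88 and 3.05 normalized counts in LPS and 2.38 and 3.81 in LPSEff. The log2 difference was −0.88 in Eff vs Ctrl (SE 0.35, adjusted p = 0.732) and 0.48 in LPSEff vs LPS (SE 0.35, adjusted p = 0.738), so neither was called. The difference between them, tested as the interaction, was 1.36 (SE 0.50), with an unadjusted p of 0.0249 and an adjusted p of 1.00. H2bc21 is 1 of the 2 genes without the hairpin in the searched window, and 99.2% of its exon windows are unique. Groups of 2 samples allow no check for single outlying samples.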

How the results depend on the processing

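Every histone gene tested stayed below 0 in LPS vs Ctrl under each alternative (46 genes for a minimum mean of 50, otherwise 60), and in LPSEff vs Eff under all but 2, where 1 gene (without Eff replicate 2) and 2 genes (without LPSEff replicate 1) were above 0. Leaving out 1 library at a time gave 20 to 46 calls in LPS vs Ctrl and 24 to 51 in LPSEff vs Eff, and 0 each time in LPSEff vs LPS, where pseudocount 5, a minimum mean of 50 and edgeR gave 1 and the replicate block 9. In those fits a lone sample is assumed to vary like the other groups, and fewer samples enter. Left-out libraries moved the median of LPSEff vs LPS between −0.86 and −0.11, and that of LPSEff vs Eff between −2.39 and −1.65. For the summed counts they gave log2 ratios of −1.65 to −1.08 (LPS vs Ctrl), −1.96 to −1.36 (LPSEff vs Eff) and −0.90 to −0.25 (LPSEff vs LPS). Rescaling to equal totals moved the sums to −1.75 (LPS vs Ctrl) and −2.09 (LPSEff vs Eff) and the median of LPSEff vs Eff to −2.45. It also moved the median of all genes, to −0.40 in LPS vs Ctrl and −0.44 in LPSEff vs Eff, and relative to these the histone medians were −1.74 and −2.01. The replicate block called 58 in LPS vs Ctrl, 57 in LPSEff vs Eff and 0 in Eff vs Ctrl and the interaction. It took away no histone call. Its counts by type and list stand beside the results, while not every gene it added is named. Of 94 single calls, 37 held in every alternative that tested them, 16 in LPS vs Ctrl and 21 in LPSEff vs Eff, and none reversed. Of 171 lost calls, 167 were in fits without 1 library. The cause was not tested. Few placed reads limit the 6 untested genes, H2ac12 and other called genes with low stimulated counts. In LPSEff, replicate 1 first, H2bc22 had 3.17 and 2.54 normalized counts, H2bc13 2.38 and 6.35, and H2bc27 5.54 and 1.27. H2bc12 had 5.54 and 6.35 there, and H2bc15 7.13 and 8.88. In these samples 3 reads correspond to 2.38 and 3.81 normalized counts.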
